A study of Mus musculus with 6 samples.

Results

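The postsynaptic density scaffold genes described here are Dlg2, Dlg4, Shank1, Shank2, Shank3, Dlgap1, Dlgap2, Dlgap3 and Dlgap4. They were chosen by name as rows of the deposited expression table, which compares cultures of Fmr1 knockout (KO) mice with wild type (WT) ones, and where a symbol had several loci, the one with the highest mean was taken. All 9 symbols were in the table, which has 47086 loci in all, and 8 of the 9 were high enough to be tested. Total RNA was sequenced from primary hippocampal cultures of newborn C57BL/6 mice at day 14 in vitro, and each genotype has 3 libraries. The groups differed by genotype only as far as the labels say, and the cultures received no treatment that the labels name. Fmr1 encodes FMRP, an RNA-binding protein whose loss causes fragile X syndrome. The study's methods describe its mice as male Fmr1 KO animals with WT littermates, and its reporting summary speaks of several culture batches and litters. They do not tie a sex, litter or batch to each library, nor name the allele, so p-values measure only the spread between these libraries. Y-linked transcripts were higher in every Fmr1 KO library (values below), so matching of the genotypes for sex cannot be assumed.

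The postsynaptic density is the protein sheet under the membrane of excitatory synapses. It is built in layers. The Dlg proteins of the PSD-95 type (Dlg4 encodes PSD-95 itself and Dlg2 encodes PSD-93) are membrane-associated guanylate kinases (MAGUKs) whose PDZ domains hold glutamate receptors and their auxiliary subunits near the membrane. The guanylate kinase-like domain of these proteins binds the SAPAP (also GKAP) proteins encoded by Dlgap1 to Dlgap4. The last residues of the SAPAP proteins bind the PDZ domain of the Shank proteins, which reach deeper into the spine and bind Homer proteins and regulators of actin. Several mRNAs of this layer are known ligands of FMRP, and SHANK and DLGAP genes are known from studies of autism and related conditions.

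The place where the SAPAP and Shank layers join is written at the end of the 4 Dlgap coding sequences. The last 30 coding bases before the stop codon are shown here because they encode this tail and because they show how alike the 4 genes are at base level. They are from the GENCODE M21 annotation of the mouse genome (GRCm38, plus strand, each within 1 coding exon), with the last 12 bases, the 4 codons of the PDZ ligand, in capitals.
Dlgap1 at chr17:70818202-70818231: atctacatccccgaggcgCAGACCCGGCTC
Dlgap2 at chr8:14846676-14846705: atctacatccctgaggccCAGACGCGGCTC
Dlgap3 at chr4:127236336-127236365: atctacatccccgaggccCAGACCAGGCTG
Dlgap4 at chr2:156762871-156762900: atttatgtccccgaggccCAGACCAGGCTC
The 4 codons in capitals encode the same residues in all 4 genes. Over the 30 bases, Dlgap2 and Dlgap3 each shared 27 with Dlgap1, and Dlgap4 shared 25.

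Genes of 1 family can exchange reads in counting where their sequences are identical over a read, so the longest identical run between the coding sequences of family members was measured in 1 annotated transcript per gene. It was 17 to 26 bases over 15 pairs (6 among Dlg1 to Dlg4, 3 among the Shank genes and 6 among the Dlgap genes). The length of 26 was reached in 4 pairs, and a run of each family is shown, in capitals because every base is shared. The 2 places of each run are given with it.
Dlg2 at chr7:92088599-92088624 and Dlg4 at chr11:70039199-70039224: GGCCTGGGCTTCAACATTGTGGGCGG
Shank1 at chr7:44316093-44316118 and Shank3 at chr15:89503180-89503205: CTGCTGGACAAGGGGCTGGACCCCAA
Dlgap1 at chr17:70593245-70593270 and Dlgap3 at chr4:127199751-127199776: AGCTACATCAAAGCCATGGGGGATGA
Each of these runs lies within 1 exon. No source used here gives the read length.

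Dlg4, the gene of PSD-95, could not be read from these data. It was listed at an FPKM of 0 in 5 libraries and at 0.017 in WT replicate 3. FPKM counts the fragments mapped to a transcript and scales them by its length and by the mapped fragments of the library, so it is a level per length that may be compared between genes. The value is that of the locus on chromosome 11 (70018455 to 70045535 in the deposited table). Dlg4 has a second locus in the table, on a scaffold outside the chromosomes, and that locus was at 0 in all 6 libraries. The level of PSD-95 mRNA was therefore not measured in WT or in Fmr1 KO, and no fold change is given for it. A listed 0 here does not mean that the transcript was absent.

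The low values were not particular to Dlg4. The same scaffold holds copies of 61 protein-coding genes that lie side by side on chromosome 11 between 69897358 and 71285232, some of them within a shared locus of the table. The chromosome locus was at 0 in all libraries for 44 of the 61, had a mean below 0.1 FPKM for 49, and reached a mean of 1 FPKM for 10. The scaffold locus was at 0 for 53 of them, and the highest mean there was 0.368. Among the genes listed at 0 were Eif5a, a translation factor, Gabarap, an autophagy protein that also binds GABA receptors, and Psmb6, a proteasome subunit. These are genes that nearly every cell uses. Within 500 kb before the block, 33 protein-coding genes had no scaffold copy, and 20 of them had a mean of at least 1 FPKM. Nlgn2, the neuroligin of inhibitory synapses, starts 195 kb before Dlg4 and had a mean of 74.6 FPKM.

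**Figure D1:**
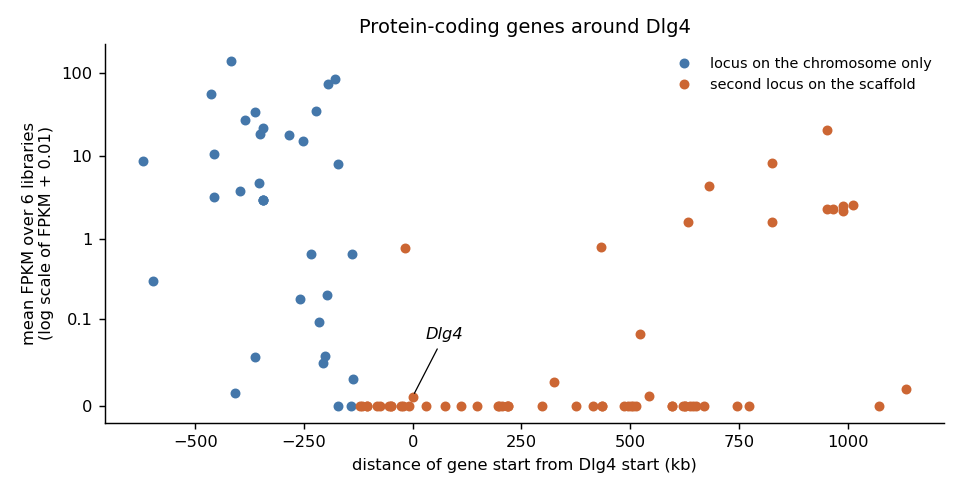
Mean FPKM over 6 libraries (log scale of FPKM + 0.01) of protein-coding genes against the distance of their start from the start of Dlg4 in kb. Orange points are the 61 genes with a second locus on the scaffold, of which 44 lie at 0, and blue points are the 33 neighbours with a locus on the chromosome only.

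The same held over the whole table. Of 1005 protein-coding genes with 1 chromosome locus and a scaffold locus, 626 (62.3%) were at 0 in all libraries and 212 (21.1%) had a mean of at least 1 FPKM. Of 20577 protein-coding genes without a scaffold locus, 4142 (20.1%) were at 0 in all libraries and 11654 (56.6%) had a mean of at least 1 FPKM. Among the 61 scaffold and partner genes of this report, 5 have a scaffold copy. Of these, Dlg4, Cacng7 and Cacng8 were below 0.1 FPKM, while Magi3 had a mean of 1.61 and Dynll2 of 91.6. None of the other 56 was below 0.1. No source used here states how reads that map to several places were treated, and the cause of the low values was not tested. The other 8 scaffold genes have a single locus each.

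The cultures expressed the rest of the scaffold genes, at levels that differed widely. Over the 6 libraries, the order of mean levels was Dlg2, Dlgap3, Dlgap1, Shank1, Dlgap4, Shank3, Shank2 and Dlgap2, from 104 down to 7.48 FPKM, and the order was the same within WT and within Fmr1 KO. Neighbours in this order were compared within each library by an exact sign-flip permutation test of their log2 ratio, for which 0.0313 is the smallest p that 6 libraries allow. Adjusted over the 7 pairs, the smallest exact p becomes 0.0547, so no neighbouring pair passed an adjusted threshold of 0.05. The pairs Dlg2 over Dlgap3, Shank1 over Dlgap4, Shank3 over Shank2 and Shank2 over Dlgap2 had the same order in 6 of 6 libraries, with mean ratios of 1.29, 1.20, 1.96 and 3.74. Dlgap3 over Dlgap1 (ratio 1.09) and Dlgap1 over Shank1 (1.12) kept their order in 5 of 6 libraries, with adjusted exact p of 0.0875 and 0.109. Dlgap4 and Shank3 changed places between libraries, with Dlgap4 higher in 2 of 6 and a mean ratio of 1.01 (adjusted exact p = 0.875). Errors in the annotated length of a gene are shared by all libraries and are not in these tests.

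The study compared the transcriptome of Fmr1 KO and WT cultures with Cuffdiff. The scaffold genes were read here from a separate fit to the deposited FPKM of the same libraries. None of the 8 tested scaffold genes changed at an adjusted p below 0.05 in limma, a linear model fitted to log2(FPKM + 0.1) over the 13195 loci whose mean reached 1 FPKM in WT or in Fmr1 KO. The adjusted p (limma, Benjamini-Hochberg over the 13195 loci) ran from 0.222 to 0.823 among the 8. Over all tested loci, 35 (0.265%) passed this threshold, 12 higher (0.0909%) and 23 lower (0.174%) in Fmr1 KO, so with 8 genes a count of 0 is near the background. At an unadjusted p below 0.05, 2 of the 8 passed (Dlg2 and Shank1), against 14.8% of all tested loci. The fitted change was above 0 for 6 of the 8 and below 0 for Dlgap1 and Dlgap3, and it was above 0 for 51.7% of all tested loci. The median log2 change was 0.083 over the 8 and 0.0050 over all tested loci.

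**Figure D2:**
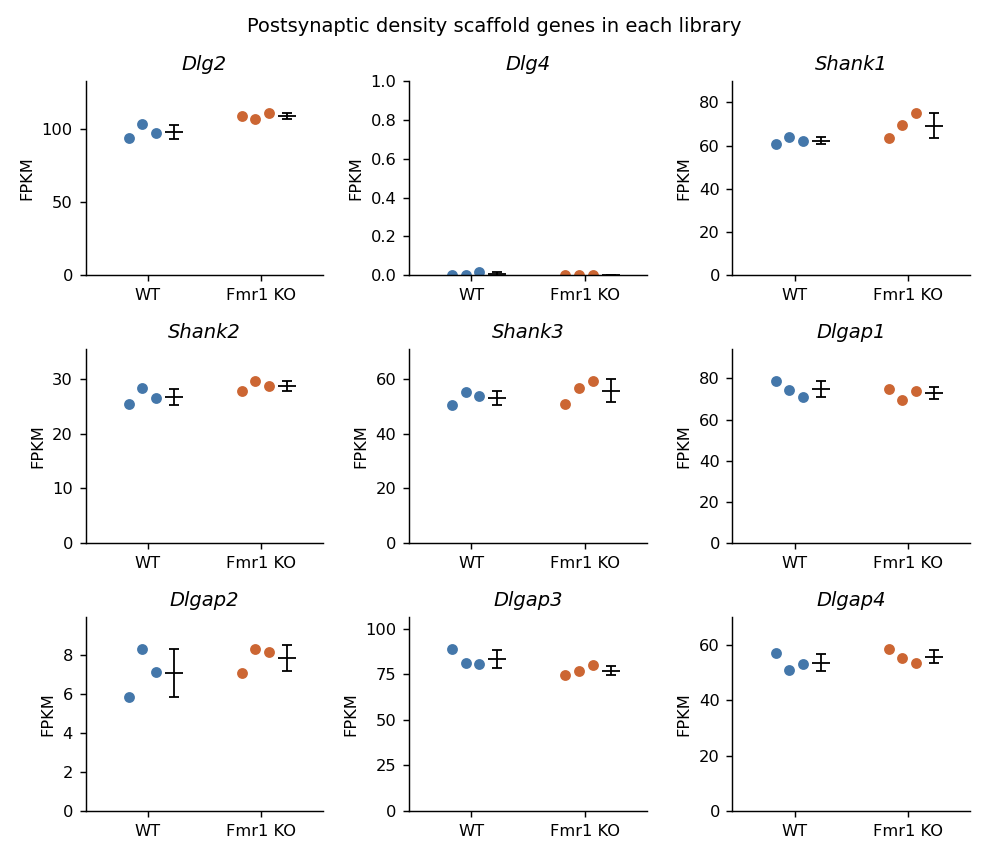
FPKM of each scaffold gene in the 3 WT (blue) and 3 Fmr1 KO (orange) libraries, with the mean and SD of each genotype as black bars; every axis starts at 0. The 3 Fmr1 KO libraries lie above the 3 WT libraries for Dlg2 and below them for Dlgap3, and Dlg4 lies at or near 0 in every library.

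Dlg2 encodes PSD-93, a close relative of PSD-95, and spans chr7:90476188-92449246 (RefSeq, GRCm38). The WT libraries had 93.7, 103 and 97.3 FPKM, against 109, 107 and 111 in Fmr1 KO. All 3 Fmr1 KO libraries were above all 3 WT libraries, by 107 against 103 at the closest. The WT mean of 98.1 ± 4.81 stood against 109 ± 1.75 in Fmr1 KO (SD, n = 3). The log2 change was 0.15 (standard error 0.05, 95% interval 0.040 to 0.26, limma adjusted p = 0.222), a fold of 1.11. By exact permutation over the 6 libraries p was 0.1, the smallest that 3 against 3 can give. Of all tested loci, 10.8% had all Fmr1 KO libraries above all WT libraries.

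Among the SAPAP genes, which link the Dlg layer to the Shank layer, Dlgap3 (chr4:127168305-127237022) had the highest level. Dlgap3 encodes SAPAP3, known from mice that lack it and groom compulsively. Its FPKM was 88.8, 80.9 and 80.4 in WT against 74.6, 76.6 and 79.9 in Fmr1 KO. Every Fmr1 KO library was below every WT library, but the closest values (79.9 and 80.4) nearly touch. The log2 change was -0.11 (standard error 0.05, 95% interval -0.24 to 0.011, limma adjusted p = 0.379), with an exact permutation p of 0.1. All Fmr1 KO libraries were below all WT libraries at 10.3% of the tested loci. Without WT replicate 1, the highest of the 6, the log2 change of Dlgap3 was -0.066.

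Dlgap1 (chr17:69969073-70821413), the gene of the first SAPAP protein (GKAP), had 78.6, 74.5 and 70.9 FPKM in WT against 75.0, 69.7 and 74.0 in Fmr1 KO. The genotypes overlapped. Its log2 change was -0.034 (95% interval -0.16 to 0.089, limma adjusted p = 0.823), the smallest of the 8, and it took the other sign, at 0.0033, when WT replicate 1 was left out. It was -0.0021 without Fmr1 KO replicate 2, -0.056 without Fmr1 KO replicate 1 and -0.071 without WT replicate 3.

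Dlgap4 (chr2:156613633-156764363) had 56.9, 50.8 and 52.9 FPKM in WT against 58.5, 55.2 and 53.5 in Fmr1 KO, also with overlap. The log2 change was 0.059 (95% interval -0.074 to 0.19, limma adjusted p = 0.687). It was 0.021 without WT replicate 2, 0.024 without Fmr1 KO replicate 1 and 0.10 without WT replicate 1. Dlgap2 (chr8:14095776-14853426) was the lowest of the tested scaffold genes and the least precise. It had 5.83, 8.29 and 7.13 FPKM in WT against 7.10, 8.32 and 8.18 in Fmr1 KO. Its log2 change of 0.16 had the widest interval, -0.12 to 0.44 (limma adjusted p = 0.601). WT replicate 1 was the lowest library, and without it the change was 0.029, while without WT replicate 2 it was 0.28.

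The Shank genes encode the scaffold proteins farthest from the membrane, and each had a higher mean in Fmr1 KO without passing the adjusted test. Shank1 (chr7:44308916-44360094) had 60.5, 64.1 and 62.3 FPKM in WT against 63.3, 69.4 and 74.9 in Fmr1 KO. Fmr1 KO replicate 1 lay inside the WT range and the other two Fmr1 KO libraries above it. The log2 change of Shank1 was 0.15 (standard error 0.06, 95% interval 0.0012 to 0.29, limma adjusted p = 0.336), and it was 0.089 without Fmr1 KO replicate 3.

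Shank3 (chr15:89493013-89560261), whose human counterpart is lost in Phelan-McDermid syndrome, had 50.3, 55.3 and 53.7 FPKM in WT against 50.9, 56.8 and 59.2 in Fmr1 KO. The ranges overlapped over most of their length. Its log2 change was 0.066 (95% interval -0.084 to 0.22, limma adjusted p = 0.693). The change of Shank3 was 0.020 without Fmr1 KO replicate 3, 0.028 without WT replicate 1 and 0.13 without Fmr1 KO replicate 1. Shank2 (chr7:143978077-144426043) had 25.5, 28.4 and 26.5 FPKM in WT against 27.8, 29.6 and 28.8 in Fmr1 KO, with WT replicate 2 inside the Fmr1 KO range. The log2 change of Shank2 was 0.10 (95% interval -0.028 to 0.23, limma adjusted p = 0.455), and it was 0.066 without WT replicate 1.

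These intervals bound what the 3 libraries per genotype could show. Taking the 8 together, no 95% interval reached a log2 change of more than 0.442 in either direction, and that bound belongs to Dlgap2. For the other genes the farthest bound was 0.29, that of Shank1. The intervals are those of single genes and are not adjusted for their number. Those of Dlg2 and Shank1 lay above 0, and those of the other genes held 0. No gene passed the adjusted test, and differences of the size the intervals allow remain possible. Neither a change nor equal levels were therefore shown.

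Several of the 8 genes had their lowest or highest value in the same library. Each gene was set against its own mean over the 6 libraries on the log2(FPKM + 0.1) scale. WT replicate 1 was the lowest library for Dlg2, Shank1, Shank2, Shank3 and Dlgap2 and the highest for Dlgap1 and Dlgap3. Fmr1 KO replicate 3 was the highest for Dlg2, Shank1 and Shank3. The share of all tested loci with their lowest or highest value in each library was not computed, so these counts are only a description. The median deviation of the 8 genes in WT replicate 1 was -0.11, with 5 below 0 and 3 above, and the median over all tested loci was 0.0068. Without WT replicate 1, the log2 change of Dlg2 was 0.12, that of Shank1 0.13, that of Shank2 0.066, that of Shank3 0.028 and that of Dlgap2 0.029.

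**Figure D3:**
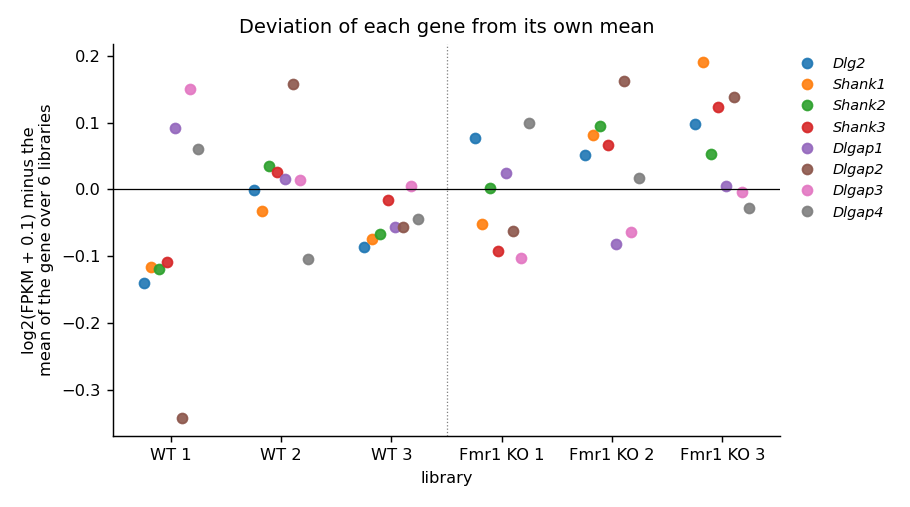
Deviation of log2(FPKM + 0.1) from the mean of the gene over 6 libraries, for the 8 tested scaffold genes in each WT and Fmr1 KO library. In WT replicate 1, Dlg2, Dlgap2 and the 3 Shank genes lie below 0 and Dlgap1, Dlgap3 and Dlgap4 above it, from -0.34 to 0.15.

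The loci whose log2 levels followed the mean deviation of the scaffold genes most closely over the 6 libraries were Epha4, an ephrin receptor (Pearson's r = 0.995), Ubash3b, a phosphatase (0.995), and Mycbp2, a ubiquitin ligase of axons and synapses (0.994). With 6 libraries that share their scaling, 268 of the tested loci had an r above 0.9, so this is only a description.

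Shares within a family do not depend on how a library is scaled. In each library the FPKM of a gene was divided by the sum over its family. Dlg2 made up 64.3, 65.0 and 65.4% of the sum of Dlg1, Dlg2 and Dlg3 in WT against 68.0, 66.8 and 67.3% in Fmr1 KO. The share was higher in every Fmr1 KO library, with a difference of 2.47 percentage points, and between 2.14 and 2.75 with any library left out. The share of Dlg1, which encodes SAP97, was 14.0, 14.4 and 14.8% in WT against 13.3, 13.5 and 12.9% in Fmr1 KO, lower in every Fmr1 KO library. The FPKM of Dlg1 itself overlapped between genotypes, with a mean of 21.8 in WT and 21.4 in Fmr1 KO (log2 change -0.024, limma adjusted p = 0.889). A lower share is thus not a lower level. Dlg3, which encodes SAP102, had 20.7% ± 0.96 in WT against 19.4% ± 0.60 in Fmr1 KO (SD, n = 3), with overlap. Dlg4 adds nothing to these sums because it was listed at or near 0, so they are not the make-up of the whole family.

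Among the Shank genes, the share of Shank1 was 44.4, 43.4 and 43.7% in WT against 44.6, 44.5 and 46.0% in Fmr1 KO. The genotypes did not overlap, by 44.4 against 44.5% at the closest. That of Shank3 was 36.9, 37.4 and 37.7% in WT against 35.9, 36.5 and 36.3% in Fmr1 KO, lower in every Fmr1 KO library. Shank2 held 18.8% ± 0.34 in WT against 18.7% ± 0.97 in Fmr1 KO (SD, n = 3). In the SAPAP family, Dlgap3 held 38.6, 37.7 and 38.0% in WT against 34.7, 36.5 and 37.1% in Fmr1 KO, lower in every Fmr1 KO library. Dlgap4 had 24.5% ± 0.72 in WT against 26.1% ± 1.19 in Fmr1 KO, Dlgap1 had 34.2% ± 0.60 and 34.1% ± 0.85, and Dlgap2 had 3.26% ± 0.67 and 3.69% ± 0.34 (SD, n = 3).

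Of the 10 shares, 5 did not overlap between genotypes (Dlg1, Dlg2, Shank1, Shank3 and Dlgap3). Each of these had an exact permutation p of 0.1, the smallest possible, which becomes 0.2 when adjusted over the 10, so none could pass. For the FPKM of single loci, all Fmr1 KO libraries were above all WT libraries at 10.8% and below them at 10.3% of the tested loci; no such rate was computed for shares. Shares of a family add up to a fixed sum and are not independent of each other.

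**Figure D4:**
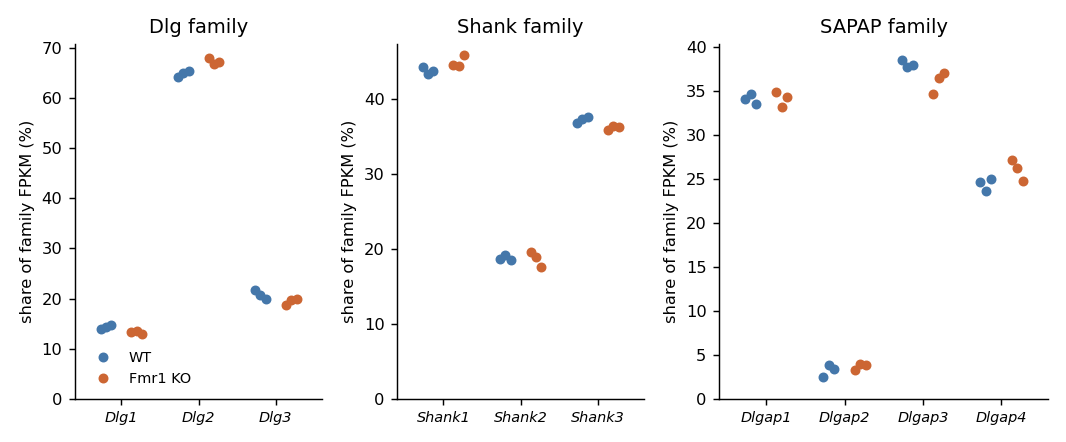
Share of each gene in the summed FPKM of its family, in percent, in the 3 WT (blue) and 3 Fmr1 KO (orange) libraries; axes start at 0. The share of Dlg2 was 64.3 to 65.4% in WT and 66.8 to 68.0% in Fmr1 KO, and that of Dlgap3 37.7 to 38.6% and 34.7 to 37.1%.

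Partners of the scaffold were read from the same fit. Of 52 genes in 5 lists, 50 were tested and none passed an adjusted p below 0.05. At an unadjusted p below 0.05, 6 were higher and 3 lower, which is 9 of 50 beside the 14.8% of all tested loci, and the median log2 change was 0.0096. By list, the median was 0.0096 over 12 MAGUK relatives, 0.0078 over 12 Homer proteins and other Shank or SAPAP partners, 0.015 over 15 enzymes and adaptors bound by PSD-95, -0.15 over 4 TARPs and -0.025 over 7 scaffold genes of inhibitory synapses. In its pathway lists (Cuffdiff, P below 0.05), the study has Nos1 and Cacng4 as higher and Cacng3 and Cacng5 as lower in Fmr1 KO. The study's full list of changed genes is not compared here with the scaffold genes or their partners. The study's test and threshold differ from the adjusted limma test used here.

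The partner nearest to the threshold was Nos1, neuronal nitric oxide synthase, which binds the PDZ domains of PSD-95 and PSD-93. Its FPKM was 9.21, 10.6 and 9.60 in WT against 12.4, 13.7 and 14.2 in Fmr1 KO. Every Fmr1 KO library was above every WT library, by 12.4 against 10.6 at the closest. The log2 change was 0.45 (standard error 0.08, limma adjusted p = 0.0654), and over the 14 alternatives the adjusted p ran from 0.0439 to 0.233. In the same list, Prr7, a small membrane protein of the postsynaptic density, had a log2 change of -0.21 (limma adjusted p = 0.260), and Iqsec1, an exchange factor for Arf6 named after its values were seen, of 0.14 (0.308). The levels of this list ran from 8.03 FPKM for Tanc1 to 157 for Agap2.

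TARPs are the auxiliary subunits that tie AMPA receptors to PSD-95. Cacng5 had 5.60, 6.48 and 5.93 FPKM in WT against 4.62, 3.97 and 4.62 in Fmr1 KO, lower in every Fmr1 KO library. Its log2 change was -0.44 (standard error 0.09, limma adjusted p = 0.0925). Cacng4 had 26.2, 25.5 and 25.0 FPKM in WT against 29.5, 28.3 and 32.5 in Fmr1 KO, higher in every Fmr1 KO library, with a log2 change of 0.23 (standard error 0.06, limma adjusted p = 0.156). Cacng3, named after its values were seen, had a log2 change of -0.41 with overlapping genotypes (limma adjusted p = 0.230). These 3 had unadjusted p below 0.05, in opposite directions. Cacng7 and Cacng8 were listed at 0 in all libraries and have a scaffold copy, so the TARP list was read from 4 of its 6 genes.

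Among the Homer proteins and other partners, Homer2, an adaptor that binds Shank and group I metabotropic glutamate receptors, had 12.7, 14.3 and 14.3 FPKM in WT against 15.9, 16.0 and 17.1 in Fmr1 KO. Every Fmr1 KO library was above every WT library. The log2 change was 0.25 (standard error 0.07, limma adjusted p = 0.163). Sharpin, which binds Shank1, had a log2 change of 0.16 (limma adjusted p = 0.302). Dynll2, a dynein light chain that binds SAPAP proteins, was the highest of this list with a mean of 91.6 FPKM, and Homer3 the lowest with 7.96. Dynll2 has a scaffold copy, so its level may be incomplete.

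Of the MAGUK relatives, Lin7c had a log2 change of 0.12 (limma adjusted p = 0.306) and the highest level of the list (43.2 FPKM), Magi1 a change of 0.16 (0.442), and Magi3 the lowest level (1.61 FPKM). Magi3 has a scaffold copy, so its level may be incomplete and its rank is uncertain. At inhibitory synapses, where gephyrin takes the place of the PSD-95 scaffold, no gene passed an unadjusted p of 0.05. The smallest were Lhfpl4, a subunit of GABA receptor complexes, with a log2 change of -0.11 (limma adjusted p = 0.493), and Slitrk3, an adhesion protein, with 0.070 (0.703). Nlgn2 had the highest level of this list and Dmd, the dystrophin gene, the lowest (12.8 FPKM).

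**Figure D5:**
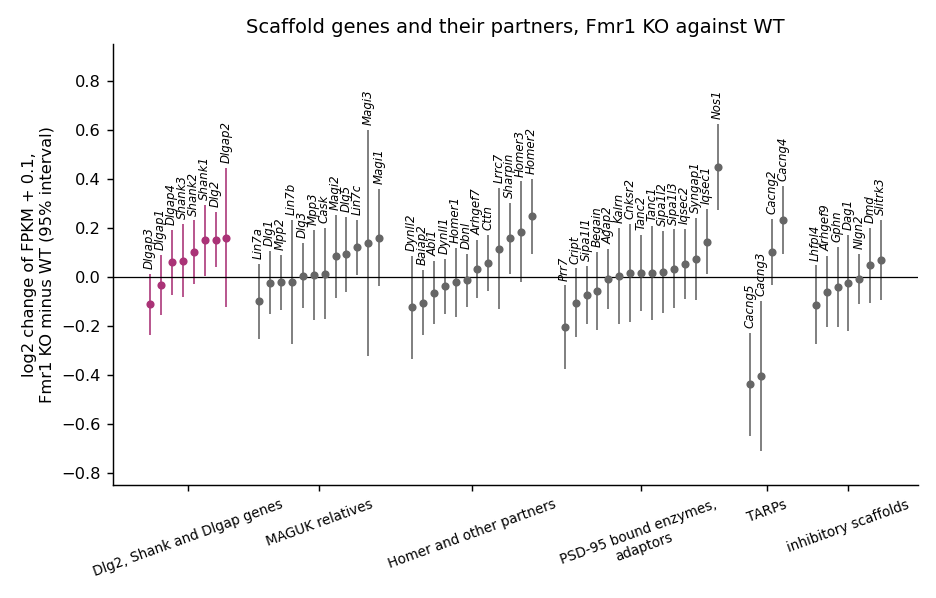
Log2 change of FPKM + 0.1 (Fmr1 KO minus WT) with its 95% interval for the 8 tested scaffold genes (purple) and the 50 tested partner genes (grey) by list. Fitted changes of the scaffold genes lie between -0.11 and 0.16, and among the partners Nos1 is highest at 0.45 and Cacng5 lowest at -0.44.

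Some facts of the whole series touch these results. Fmr1 itself was at 19.0 to 19.7 FPKM in WT and 18.5 to 23.1 in Fmr1 KO (log2 change 0.12, limma adjusted p = 0.536), with no fall in Fmr1 KO. This is a single value for the gene, and the allele is not named, so it checks no label. Why it did not fall was not tested. The study reports FMRP by Western blot in WT but not in Fmr1 KO hippocampus, which is not the material of these libraries. In bulk cultures, fewer cells of a type and less RNA per cell cannot be told apart. Summed FPKM of 7 pan-neuronal markers was 1189 to 1248 in WT and 1202 to 1287 in Fmr1 KO, that of 6 excitatory markers 999 to 1039 and 1029 to 1102, and that of 7 astrocyte markers 1368 to 1634 and 1442 to 1600, all overlapping and none called. The sums of 6 inhibitory neuron markers (338 to 356 against 314 to 361) and of 7 markers of the oligodendrocyte lineage (346 to 402 against 396 to 439) overlapped as well, with no call. The labelled hippocampal neurons were thus present together with glia. Within the pan-neuronal sum, genes moved in opposite directions, with 3 fitted changes above 0 and 4 below. Map2, the largest part of it, had a mean of 302 FPKM in WT and 362 in Fmr1 KO, higher in every Fmr1 KO library. Nefl had 126 in WT and 107 in Fmr1 KO, lower in every Fmr1 KO library. Map2 also has a scaffold copy, so its level may be incomplete. The sums of 5 proliferation markers did not overlap (44.2 to 49.0 in Fmr1 KO against 34.8 to 41.5 in WT), and none of the 5 was called. Those of 8 microglia markers were 1.06 to 2.41 in Fmr1 KO against 4.16 to 6.29 in WT, with 3 of the 8 tested, none called, and Aif1 and Tmem119 listed at 0 in all libraries. For 8 markers of endothelial, mural and fibroblast cells the sums were 39.0 to 47.2 in Fmr1 KO against 48.3 to 53.1 in WT, with 4 tested and none called. Dcn made up most of this sum (30.1 to 39.0 against 39.0 to 43.8 FPKM), Col1a1 and Col1a2 had higher means in Fmr1 KO, and Cldn5 was listed at 0. Aif1 and Cldn5 have scaffold copies, as Dlg4 does, so their zeros cannot be read as levels. The 4 Y-linked transcripts summed to 18.7 to 19.7 in WT and 35.4 to 38.2 in Fmr1 KO, with 3 of the 4 called. Each of the 4 was higher in every Fmr1 KO library. The sex make-up of the cultures is not given. A difference in it between the groups cannot be told apart from genotype in any comparison here, and it was not tested. The sums of FPKM over all loci were 1803679 to 2303083, and the number of reads behind each value is unknown. The part of these differences in the values of the scaffold genes was not tested.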

How the data were processed

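Per the study's methods, the authors used TopHat2 on GRCm38, then Cufflinks for gene models and Cuffdiff for the comparison. No source used here states versions, annotation or the handling of reads with several matches. The authors deposited FPKM per library (48100 rows, 47086 loci, 462 rows without a symbol). Their group FPKM, fold change, p and q columns hold their own comparison and were not used. Each locus was tested once in limma 3.58.1 (R 4.3.3), with genotype as only term and a mean-variance trend, after adding 0.1 to FPKM and taking log2; loci under a mean of 1 FPKM in both genotypes were left out, and log2 changes of low genes are understated on this scale. Levels, shares and single genes were compared by exact permutation. All tests were two-sided. The fit was tested on simulated data. The scaffold genes and all lists were chosen with earlier results of these data known. Named were the scaffold genes, Fmr1, in each list the calls, the 2 smallest p and the highest and lowest levels, and the 3 loci most alike. Sequences are from GENCODE M21 and gene positions from RefSeq, both GRCm38.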

Additional observations from a re-analysis of the deposited data

How the results depend on the processing

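Over 14 alternatives (pseudocounts of 1 and 0.01, no FPKM minimum, a minimum of 5, centring of each library, no mean-variance trend, removal of the trend with locus span, the replicate number as a block, and each library left out), no scaffold gene passed an adjusted p below 0.05 in 112 fits, and the smallest adjusted p was 0.125 (limma), for Dlg2 with the span trend removed. The direction was kept in 111 of the 112. The exception was Dlgap1, at 0.0033 without WT replicate 1 (-0.071 to 0.0033 with each library left out), and among the partners Slitrk3 also changed sign without that library, to -0.0077 (-0.0077 to 0.12). The count of loci called over the whole table moved more. It was 6 higher and 9 lower without an FPKM minimum, and 20 higher and 34 lower with a minimum of 5. Without the mean-variance trend it was 7 higher and 14 lower. With the span trend removed it was 19 higher and 29 lower, and with a library left out 5 to 7 higher and 8 to 13 lower. In the list of PSD-95 bound enzymes and adaptors, 1 gene (Nos1) passed with the minimum of 5, with the span trend removed and with the block. The cause was not tested. The rank of all 8 scaffold genes by level was the same within each genotype.

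Replicate numbers are shared by WT and Fmr1 KO in the labels, which do not say whether they mark pairs. The correlations of the deviations of same-numbered libraries were 0.243, 0.0577 and 0.0801. Those of differently numbered libraries were not kept. Deviations from a genotype mean cancel within that genotype, so positive values here go with negative ones, on balance, between differently numbered libraries. Whether the numbers pair the libraries was not tested. The main fit left them unpaired. With the number as a replicate block, 29 loci were called higher and 36 lower, against 12 and 23 in the main fit, and no scaffold gene was called.

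The spread of 3 libraries per genotype limits what can be seen here, and because FPKM carries no read numbers, no counting error can be given. Dlg4, Cacng7 and Cacng8 cannot be read at all.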
